A study of Mus musculus with 6 samples.

Results

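The Gadd45 genes (Gadd45a, Gadd45b and Gadd45g), the tumour suppressor gene Trp53 and 6 of its target genes (Cdkn1a, Mdm2, Ccng1, Btg2, Bax and Phlda3) were examined in mouse liver. The members were chosen by gene symbol, and every probe set of the array that the platform annotation assigns to one of these symbols was taken. Of the 10 genes, 8 were measured, by 16 of the 34325 probe sets that carry a single gene symbol and as 8 of 18029 genes in all. No probe set carries the symbol Trp53 or Bax in the annotation used, so these genes were not analysed here.

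Liver RNA came from 3 control mice with floxed RECS1 alleles (genotype RECS1-flox) and 3 mice lacking RECS1 in hepatocytes (RECS1-HKO, written HKO). The gene is now called Tmbim1 and encodes a membrane protein of multivesicular bodies and lysosomes. All 6 mice were C57BL/6, began a high-fat diet at 8 weeks of age, stayed on it for 8 weeks and were 16 weeks old. The labels state neither the sex of the mice nor the promoter that drove Cre. Each mouse gave 1 biotin-labelled sample on 1 Affymetrix array, and with 3 arrays a genotype the precision is limited.

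The p53 protein is a transcription factor that is kept scarce in unstressed cells by Mdm2, a ubiquitin ligase that is itself a p53 target. When DNA damage or other stress frees p53, it raises genes that stop the cell cycle, assist repair or start apoptosis. The Gadd45 proteins are small acidic proteins without enzyme activity that bind PCNA, p21, the Cdk1 and cyclin B1 complex and the kinase Map3k4, which acts upstream of p38 and JNK. Gadd45a is a classical p53 target, whereas Gadd45b and Gadd45g are known mainly as early response genes of cytokines, and in liver Gadd45b is also a coactivator of the receptor CAR.

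The promoter windows of the Gadd45 genes are shown because these related genes are compared with each other below. They are RefSeq sequences of GRCm38.p6, each of 300 bases, from 250 before to 50 after the annotated start, written in the direction of transcription. Gadd45a lies on the minus strand (chr6:67037358-67037657), and Gadd45b (chr10:80929841-80930140) and Gadd45g (chr13:51846425-51846724) on the plus strand. Capitals mark a CCAAT box, a TATA box, an E-box or the p53 decamer (the 10-base unit of a p53 response element), none of which overlap here.
Gadd45a: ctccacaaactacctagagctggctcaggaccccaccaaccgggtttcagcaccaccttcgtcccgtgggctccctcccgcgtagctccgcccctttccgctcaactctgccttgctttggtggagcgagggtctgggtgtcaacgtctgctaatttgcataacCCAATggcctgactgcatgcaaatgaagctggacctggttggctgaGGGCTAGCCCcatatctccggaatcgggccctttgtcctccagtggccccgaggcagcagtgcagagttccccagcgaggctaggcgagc
Gadd45b: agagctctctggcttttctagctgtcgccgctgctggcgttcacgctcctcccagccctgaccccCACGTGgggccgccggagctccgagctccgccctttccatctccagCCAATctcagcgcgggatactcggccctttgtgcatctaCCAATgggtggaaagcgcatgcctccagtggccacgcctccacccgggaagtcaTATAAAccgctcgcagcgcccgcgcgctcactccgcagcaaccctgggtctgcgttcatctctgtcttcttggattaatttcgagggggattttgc
Gadd45g: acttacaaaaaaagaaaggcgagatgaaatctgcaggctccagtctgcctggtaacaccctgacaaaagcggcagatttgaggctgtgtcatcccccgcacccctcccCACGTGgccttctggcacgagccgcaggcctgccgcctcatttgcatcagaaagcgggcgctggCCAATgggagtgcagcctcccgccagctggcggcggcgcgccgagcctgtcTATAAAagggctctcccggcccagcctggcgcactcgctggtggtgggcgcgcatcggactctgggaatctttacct

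The motifs were searched on both strands of 32851 promoter windows of that length. A CCAAT box was found in all 3 Gadd45 windows and in 37.4% of all windows. The TATA box, searched as TATAAA and lying at -27 to -22 in Gadd45g and -46 to -41 in Gadd45b, was found in 13.6% of all windows and not in that of Gadd45a. The E-box, searched as CACGTG and lying at -142 to -137 in Gadd45g and -185 to -180 in Gadd45b, was found in 7.15%. The p53 decamer was found in the Gadd45a window, as GGGCTAGCCC at -40 to -31, and in 8.36% of all windows. Among the other measured genes, decamers stood in the windows of Mdm2 (GAACTTGCCT), Ccng1 (GGGCAAGCCT) and Cdkn1a (GGACTAGCTT and GAACATGTCT, in the upstream of its 2 windows). The AP-1 motif TGANTCA (7.81% of windows) and the NF-kB motif (4.51%) were found in none of the Gadd45 windows. A match of letters is not a binding site, and p53 elements outside these windows were not searched.

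The deposited values are log2 intensities of probe sets, here compared between genotypes as HKO minus control with limma across all 18029 genes (threshold: Benjamini-Hochberg adjusted p of 0.05). Each gene was represented by its brightest probe set. Array medians lay between 3.92 and 3.95, and correlations across genes were 0.995 to 0.996 within a genotype and 0.991 to 0.994 between genotypes. Tmbim1 itself stood at 7.62, 7.58 and 7.74 in control and 7.19, 7.14 and 7.06 in HKO liver, a fall to 0.697 times the control level (adjusted p = 0.026). Hepatocyte markers averaged between 12.19 and 12.51 (log2) on every array. None of 45 measured marker genes from 10 cell type lists passed the test. The mean of the 4 cholangiocyte markers was lower in HKO (3.25 to 3.45) than in control liver (3.60 to 3.71), and the means of the other lists overlapped between genotypes. Of these 4, all dimmer than the median gene, Sox9 stood at -0.66, Krt19 at -0.28, Krt7 at -0.22 and Epcam at -0.05. Among all genes, groups did not overlap in 18.7%.

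Of the 8 measured genes, 1 rose in HKO liver, Gadd45g, and none fell. Of all genes tested, 1.01% passed, 0.56% upward and 0.449% downward. Gadd45g stood at 5.31, 6.03 and 5.91 on the control arrays and at 7.75, 8.17 and 7.52 on the HKO arrays. The lowest HKO value lay well above the highest control value. The mean rose from 5.75 ± 0.38 to 7.81 ± 0.33 (SD, n = 3 each), a log2 difference of 2.07 ± 0.22 (SE; 95% interval 1.57 to 2.56) or 4.18-fold (limma, adjusted p = 0.00412). In the whole table this was the 20th largest rise and the 45th lowest p. The gene is measured by 1 probe set, which lies at the 77.6th percentile of brightness among genes, so no other probe set bears on this value.

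Leaving out any 1 array kept the rise between 1.85 and 2.21 log2 units, with adjusted p between 0.00923 and 0.0347. Gadd45g also passed in each of 9 other refits of all arrays. Its spread within genotypes was large beside that of other genes (residual SD 0.358, at the 98.0th percentile). In whole liver, a change of RNA per cell and a change in the share of a cell type cannot be told apart. The 5 measured proliferation markers, whose proteins mark dividing cells, were all at positive values (0.26 to 0.62 log2 units), and none passed. The part of the cholangiocyte and proliferation markers in the Gadd45g result was not tested.

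**Figure D1:**
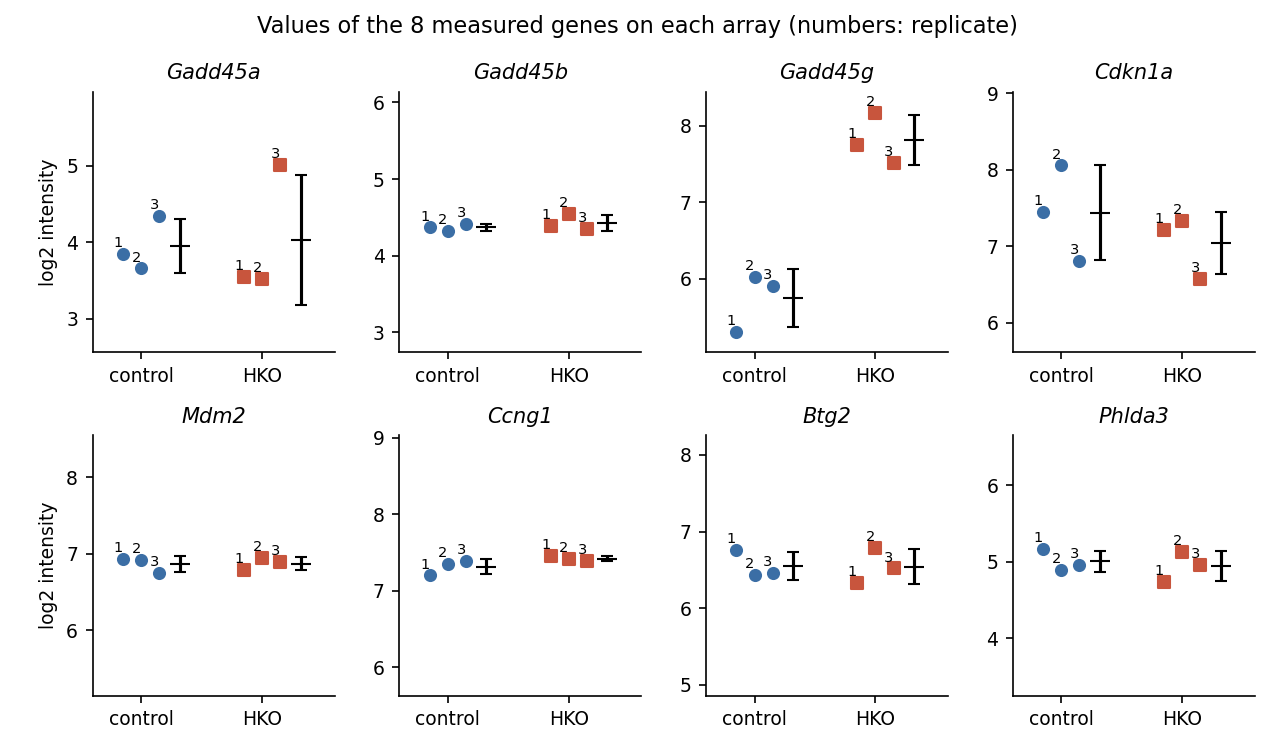
Log2 intensity of the 8 measured genes on each array, by the brightest probe set of each gene, with control arrays as circles, HKO arrays as squares, replicate numbers beside the points and the mean ± SD as bars. All panels span the same number of log2 units. Gadd45g lies between 5.31 and 6.03 in control and between 7.52 and 8.17 in HKO liver, while the values of Gadd45a and Cdkn1a scatter within each genotype.

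Neither of the other family members passed the test. Gadd45a, the p53-dependent member, stood at 3.85, 3.66 and 4.34 in control and at 3.55, 3.52 and 5.01 in HKO liver. The third HKO mouse had the highest value of all 6 and the other HKO mice the lowest, so the groups overlapped. The log2 difference was 0.08 ± 0.38 (SE; 95% interval -0.79 to 0.94; limma adjusted p = 0.958), and it was -0.42 without HKO 3 and -0.07 without control 2. Gadd45a is dim (39.2th percentile), and its residual SD of 0.65 log2 units lies at the 99.7th percentile of all genes.

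Gadd45b, a growth arrest and survival factor in liver injury and regeneration, is measured by 3 probe sets. Its brightest stood at 4.37, 4.33 and 4.42 in control and at 4.39, 4.55 and 4.35 in HKO liver. Values of the groups interleaved, and the spread was small. They differed by 0.06 ± 0.08 (limma adjusted p = 0.811; 95% interval -0.13 to 0.24). The other probe sets stood at 0.09 ± 0.16 and -0.04 ± 0.11 (adjusted p = 0.872 and 0.929 over all probe sets). All 3 lie near or below the median gene (4.69).

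Unequal change within the family was tested directly from the difference between 2 genes on each array. The change of Gadd45g exceeded that of Gadd45a by 1.99 log2 units and that of Gadd45b by 2.01, and the per-array differences did not overlap between genotypes for either. Gadd45g minus Gadd45a ran from 1.46 to 2.37 in control and from 2.51 to 4.65 in HKO liver, a narrow gap. Gadd45g minus Gadd45b ran from 0.95 to 1.71 and from 3.17 to 3.62. An exact two-sided permutation test gave p = 0.1 for both, the smallest that 3 against 3 arrays allow (0.15 adjusted over the 3 pairs). Gadd45a and Gadd45b differed from each other by 0.02 (exact p = 1). Leaving out 1 array moved the excess of Gadd45g over Gadd45a to between 1.56 and 2.63, and that over Gadd45b to between 1.79 and 2.17.

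**Figure D2:**
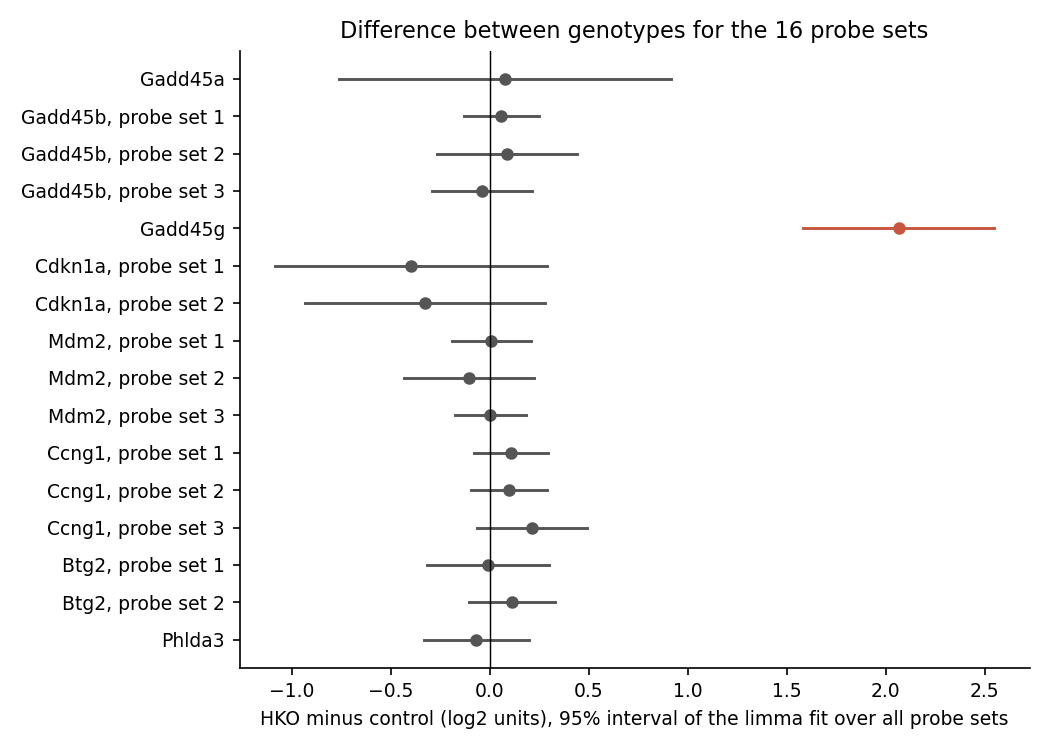
Log2 difference (HKO minus control) of each of the 16 probe sets as points, with 95% intervals as lines from the limma fit over all probe sets, numbered within a gene from the brightest. The interval of Gadd45g runs from 1.58 to 2.55, and the intervals of the other 15 probe sets include 0.

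None of the 5 measured p53 targets passed. Over the 15 probe sets other than that of Gadd45g, log2 differences lay between -0.40 and 0.21, and adjusted p over all probe sets between 0.552 and 0.998. Not one of these had an unadjusted p under 0.05. The 95% interval lay within 1 log2 unit on either side of 0 for 14 of them and within 0.5 for 12. Groups did not overlap in 1 of the 15, against 17.2% of all probe sets, of which 0.72% passed the test.

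Cdkn1a encodes p21, the inhibitor of cyclin-dependent kinases through which p53 arrests the cell cycle. Its brightest probe set stood at 7.45, 8.06 and 6.81 in control and at 7.22, 7.33 and 6.58 in HKO liver. The ranges overlapped, with 2 of the 3 control values above every HKO value and the lowest value in HKO 3. The second probe set stood at 6.99, 7.58 and 6.52 and at 6.72, 7.08 and 6.31, again highest in control 2 and lowest in HKO 3. In both probe sets and both genotypes, array 2 was highest and array 3 lowest. The 2 probe sets read the same RNA. The log2 difference was -0.40 ± 0.31 (SE; 95% interval -1.11 to 0.31; limma adjusted p = 0.648), with -0.33 ± 0.27 in the second probe set (0.69 over all probe sets).

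The Cdkn1a value rested on single mice. It was -0.09 without control 2, -0.16 without HKO 3 and -0.71 without control 3. A residual SD of 0.527 placed it at the 99.4th percentile of all genes. Its interval holds values on both sides of 0, so these 6 arrays do not settle its direction.

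**Figure D3:**
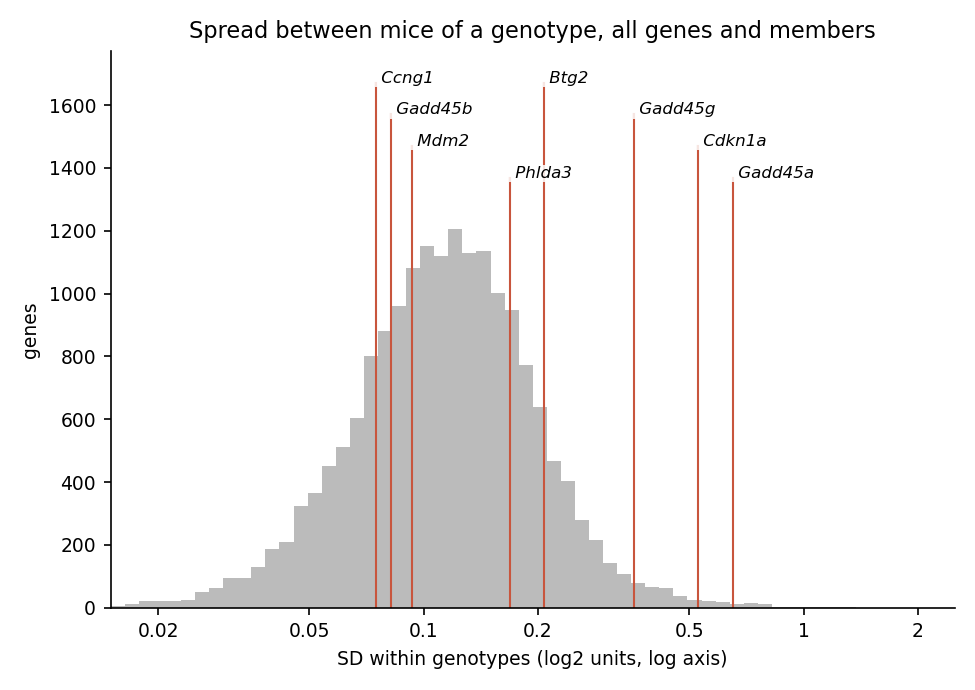
Number of genes (vertical axis) by the SD within genotypes (horizontal log axis, log2 units), with 1 array a mouse and red lines at the members. Gadd45a (0.65), Cdkn1a (0.527) and Gadd45g (0.358) lie in the upper tail, and Ccng1 (0.0749), Gadd45b (0.0819) and Mdm2 (0.0934) at or below the bulk.

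Mdm2, the ubiquitin ligase that degrades p53, stood at 6.93, 6.92 and 6.74 in control and at 6.78, 6.94 and 6.89 in HKO liver. The groups overlapped throughout, and their means differed by 0.01 ± 0.08 (limma adjusted p = 0.985; 95% interval -0.19 to 0.20). Its dimmer probe sets stood at -0.10 ± 0.14 and 0.00 ± 0.08, the last with a mean of 2.55 that lies far below the median gene.

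Ccng1, which encodes cyclin G1, a p53-induced partner of protein phosphatase 2A that acts on Mdm2, stood at 7.20, 7.35 and 7.39 in control and at 7.45, 7.41 and 7.39 in HKO liver. The lowest HKO value lay just above the highest control value, at 7.387 and 7.386. Groups lay apart in this way in 18.7% of all genes (8.58% higher and 10.1% lower in HKO). The log2 difference was 0.11 ± 0.08 (limma adjusted p = 0.627; 95% interval -0.07 to 0.29). Its other probe sets stood at 0.10 ± 0.08 and 0.21 ± 0.12, both with overlapping groups. This gene and Mdm2 had the narrowest intervals of the 5 p53 targets.

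Btg2, an antiproliferative protein that recruits the deadenylation machinery and is also an early response gene, stood at 6.76, 6.44 and 6.46 in control and at 6.33, 6.78 and 6.52 in HKO liver. The highest and the lowest value both belonged to HKO mice. HKO minus control was -0.01 ± 0.14 (limma adjusted p = 0.985), and 0.11 ± 0.10 by its second probe set. Phlda3, a pleckstrin homology protein that restrains Akt, stood at 5.16, 4.90 and 4.96 in control and at 4.74, 5.12 and 4.96 in HKO liver. The groups overlapped, with a log2 difference of -0.07 ± 0.12 (limma adjusted p = 0.852).

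Where a gene had several probe sets, the brightest was also tested against the second on each array, across 8836 such genes. Of these pairs, 0.113% differed between genotypes (limma, adjusted p under 0.05). None of the 5 members with several probe sets was among them. Their differences lay between -0.12 for Btg2 and 0.11 for Mdm2, with adjusted p between 0.815 and 0.991.

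Further genes of the pathway were read from the same fit, in lists by role. Of 93 measured genes outside the members, 2 rose and 1 fell, or 3.23%, beside the 1.01% of all genes. Their median log2 difference was 0.00, as over all genes (0.00). The lists were chosen with earlier results of these data known, so the 3.23% is a description. An excess over all genes was not tested. Among 13 further p53 targets of arrest and feedback, the polo-like kinase Plk3 rose and 12 did not pass (list median -0.02). None of 14 p53 targets of cell death passed (median -0.04), with Steap3, a ferrireductase, at -0.26 (limma adjusted p = 0.219) and Perp, a desmosome protein, at 0.19 (0.391). None of 16 p53 targets of repair and metabolism passed (median -0.01), with the excision repair nuclease Ercc5 at -0.39 (0.137) and the peptide transporter Tap1 at -0.35 (0.247). None of 14 measured regulators of p53 passed (median 0.02), with the checkpoint kinase Chek1 at 0.26 (0.242) and the kinase Hipk2 at 0.24 (0.31). By the median of a gene's probe sets, Chek1 stood at 0.16 and Hipk2 at 0.04. Chek1 and Tap1 are dim (19.4th and 12.3th percentile).

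Plk3, a stress-responsive kinase that can phosphorylate p53, stood at 5.84, 6.47 and 6.37 in control and at 7.82, 7.62 and 7.31 in HKO liver. The groups lay clearly apart. The rise amounted to 1.36 log2 units (SE 0.18; limma adjusted p = 0.0166). It no longer passed without control 3 (0.0539), HKO 1 (0.0865) or HKO 2 (0.0549), at differences between 1.24 and 1.43. Plk3 has 1 probe set.

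Partners of the Gadd45 proteins and the p38 and JNK kinases showed no call among 13 measured genes (median -0.03). Map3k4, the kinase that Gadd45 proteins bind, stood at 0.03 (limma adjusted p = 0.914). Map3k5, another kinase upstream of p38 and JNK, stood at -0.64 ± 0.18 (0.196), with its second probe set at -0.69, and Cdk1 at 0.29 ± 0.10 (0.253). Of 13 measured regulators of Gadd45 genes, 1 rose (median 0.11). This was Rela, the p65 subunit of NF-kB, at 7.53, 7.66 and 7.64 in control and 9.54, 9.48 and 9.56 in HKO liver (log2 difference 1.91 ± 0.07, adjusted p = 1.17e-05). All 3 HKO values stood well above the control values, within a narrow spread. Rela has 1 probe set. The early growth response factor Egr1 stood at 0.44 (0.156), Atf3 at 0.39 (0.34) and Foxo3 at -0.39 (0.168), none past the threshold. Atf3 is dim (34.7th percentile) and stood highest in HKO 3 (4.29, against 3.86 and 3.62 in the other HKO mice). Smad2 stood at 0.31 (0.167), Atf4 at 0.11 (0.616), Myc at 0.03 (0.949) and Ddit3 at -0.01 (0.995).

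Of 13 measured paralogs of the members, 1 fell (median -0.04). Phlda1, a relative of Phlda3, stood at 8.57, 8.54 and 8.62 in control and at 7.61, 7.12 and 7.59 in HKO liver. All HKO values lay below the control values, and the log2 difference was -1.14 ± 0.13 (limma adjusted p = 0.00705). Phlda1 has 1 probe set. Phlda3 thus stood at -0.07 and Phlda1 at -1.14, a contrast that was not tested as such. The Bcl2 family gene Bok (-0.50, 0.0576) and the Btg relative Tob1 (0.56, 0.0692) did not pass, nor did the regulator Nr1i3, the receptor CAR (0.52, 0.0616). These 3 passed when dim genes were left out (limma adjusted p = 0.0367, 0.0465 and 0.0395, in that order). With eBayes trend and robust options they also passed (0.027, 0.0288 and 0.0257). Each of these 2 settings brought the count of pathway genes from 3 to 6. Bok passed as well by the median of a gene's probe sets and with arrays centred on their median. Nr1i3 passed without control 1, and Tob1 without HKO 3. Of the 2 probe sets of Tob1, the brightest changed by 0.62 log2 units more than the second (limma adjusted p = 0.151). The values of Tob1 given here thus hold for its brightest probe set only.

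**Figure D4:**
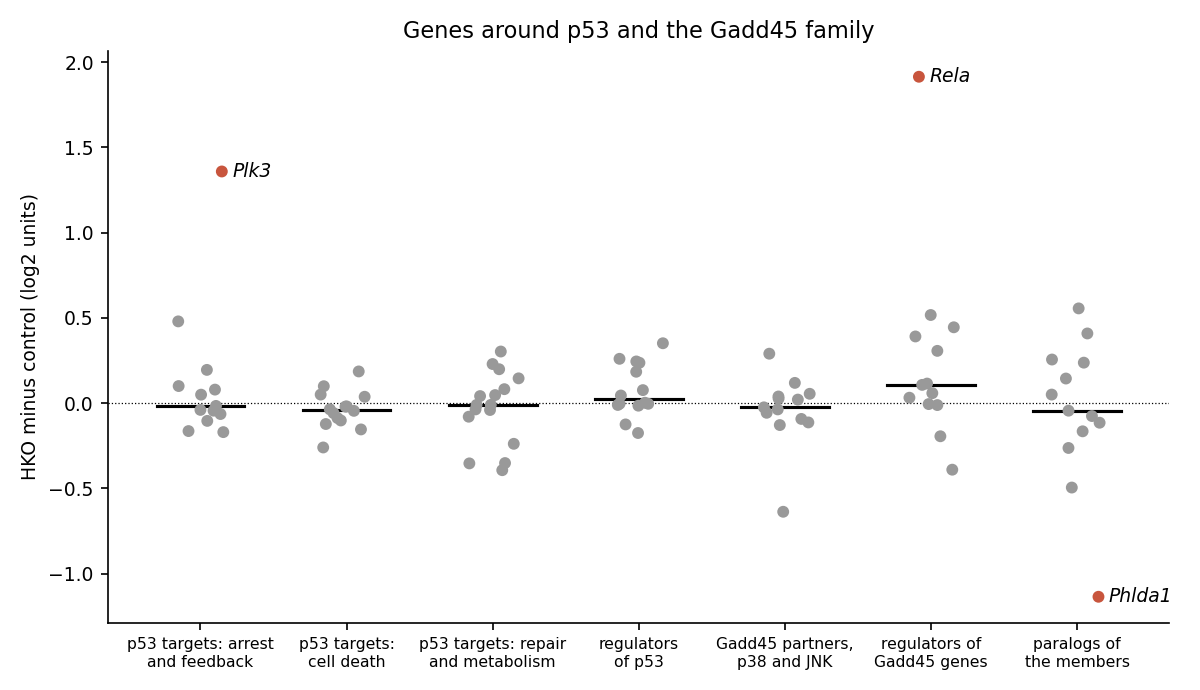
Log2 difference (HKO minus control) of each measured gene in 7 lists of genes around p53 and the Gadd45 family, with genes past the threshold in red and named, and the list medians as black lines. Plk3 (1.36), Rela (1.91) and Phlda1 (-1.14) stand apart, and the medians lie between -0.04 and 0.11.

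The named genes whose pattern over the 6 arrays was most like that of Gadd45g, among genes above the median brightness, were Rapgef2 (Pearson r = 0.992), Khdrbs3 (0.988), Sos2 (0.983), Cd55 (0.983) and Ddt (0.982). The arrays fall into the 2 genotypes, so each r includes the difference between them and is given as a description. Of the 5, Sos2, a guanine nucleotide exchange factor of Ras, passed at 0.51 ± 0.08 (limma adjusted p = 0.0294). The others stood between 0.14 for Ddt and 0.37 for Khdrbs3 and did not pass. None of the 5 belongs to the lists above.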

How the data were processed

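The authors deposited log2 probe set intensities, made with RMA. This and limma are named in the submitters' processing notes, with settings and versions not given in the sources used here. RMA gives arrays a common distribution of probe intensities before probe set values are formed, and it shrinks differences of dim probe sets. Of 38208 probe sets, 34325 carry 1 gene symbol in the platform annotation, 62 several and 3808 none, and 13 are controls. Of the 34325, 34131 matched the reference gene table.

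Each of 18029 genes was represented by its brightest probe set on average. The HKO minus control difference came from limma 3.58.1 run in R 4.3.3 (lmFit, eBayes, two-sided, genotype only), adjusted over all genes or, for single probe sets, over all 34325. Samples were grouped by title. The members and gene lists were chosen with earlier results of these data known. Named genes were the members, list genes past the threshold or otherwise the 2 with the lowest p of a list, and the 5 most correlated with a member past the threshold. Bok, Tob1, Nr1i3, Map3k4, Egr1, Atf3, Foxo3, Smad2, Atf4, Myc and Ddit3 were named after their values were seen. The limma fit over genes and that of differences between probe sets were tested on simulated data, and the other steps were not. No 2 arrays held identical values. The labels describe biological samples, so the spread is that between mice.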

Additional observations from a re-analysis of the deposited data

How the results depend on the processing

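The call of Gadd45g held in every alternative run, and 1 member passed in each. Without 1 array its difference lay between 1.85 and 2.21. Fewer genes passed without 1 array (78 to 161 against 182 as reported, 70 to 116 of them among the 182; 46 to 94 upward against 101; probe sets 77 to 180 against 247), and more at an adjusted p under 0.1 (344, with 165 upward). Pathway genes past the threshold numbered 6 among bright genes, 6 with trend and robust options, and 2 to 4 in the other runs at this threshold. Differences between probe sets were called in 10 genes, in 2 among bright probe sets, in 21 against the median of the other probe sets, and in 9 to 20 without 1 array.

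Signs near 0 were not fixed. By the median of a gene's probe sets Mdm2 stood at -0.10, Btg2 at 0.0504 and Steap3 at 0.0634. Btg2 was 0.0048 after quantile normalization and 0.0028 with array weights, where Mdm2 was -7.65e-05. Without 1 array Gadd45a ranged from -0.42 to 0.33, Gadd45b from -0.0019 to 0.10, Mdm2 from -0.053 to 0.051, Btg2 from -0.13 to 0.098, Phlda3 from -0.16 to 0.034, and Gadd45a minus Gadd45b from -0.51 to 0.33.

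The labels share the numbers 1 to 3 between genotypes without saying that they pair mice. Deviations of same-numbered arrays correlated at -0.09, 0.07 and 0.11, and 2 of 6 arrays were closest to their own number. With the number as a block 125 genes passed, among them Gadd45g (adjusted p = 0.00672), and Plk3 stood at 0.056. Probe sets past the threshold then numbered 191. Cdkn1a, whose values fell in the order 2, 1, 3 in both genotypes, did not pass with the block (limma adjusted p = 0.279, against 0.648 without it). Whether the differences of Gadd45a and Gadd45b (39.2th and 45.6th percentile of brightness) are shrunken was not tested. With 3 arrays a group, small changes can go undetected.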
